A study of Rattus norvegicus with 19 samples.

Results

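Among 13 radiation-induced rat mammary carcinomas, the 6 with the highest myoepithelial score were compared with the 6 with the lowest, and the carcinoma at the median was left out. The score was the mean of 5 genes, Krt5, Krt14, Krt17, Myh11 and Cnn1, each centred on its mean over the 13 carcinomas, so the sets were chosen by measured values and not by the labels. Carcinomas 4, 5, 1, 10, 8 and 9, in order from the top, made up the high-score set. Carcinomas 3, 13, 12, 2, 6 and 7, the last of them lowest, made up the low-score set, and carcinoma 11 was the median one. The whole series held 19 samples, with 6 normal mammary glands beside the carcinomas, each on an Agilent single-colour array. All came from female F1 hybrid rats of the Sprague-Dawley and Copenhagen strains. Per the labels, rats received whole-body gamma rays from a caesium source (4 Gy at 0.5 Gy per minute, at 7 weeks of age) or no treatment, and every carcinoma is labelled as induced by radiation. The labels do not say which glands came from irradiated rats, the age at sampling, or whether any carcinomas came from the same rat, so p-values measure the spread between these samples.

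Myoepithelial cells form the outer, basal layer of mammary ducts and alveoli, next to the basement membrane. They combine an epithelial keratin skeleton, of which Krt5, Krt14 and Krt17 are members, with the contractile apparatus of smooth muscle, to which the myosin heavy chain Myh11 and the actin-binding calponin Cnn1 belong, and they contract under oxytocin to eject milk. Basal keratins are also made by other epithelial cells, and the contractile genes also by vascular smooth muscle and myofibroblasts. Levels are given as log2 intensity relative to the array's 75th percentile, so that 0 is the 75th percentile of the array's spots, and differences are the high-score mean minus the low-score mean on that log2 scale, with their standard error.

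The score ranged from 0.29 to 1.45 in the high-score set, with a median of 0.87, and from -5.11 to 0.12 in the low-score set, with a median of -0.08. Carcinoma 9, just inside the high-score set, had 0.29, carcinoma 11 had 0.25, and carcinoma 3, just inside the low-score set, had 0.12. The split therefore ran through a nearly continuous series of values, and the gap of 0.04 between carcinomas 9 and 11 was smaller than most distances inside either set. Carcinoma 7 stood far below the rest: without it the low-score set reached down only to -0.36. The normal glands, placed on the same scale, scored between -0.81 and 0.11, below all 6 high-score carcinomas.

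The 3 keratins chose the sets unevenly. Krt5 had a lowest, median and highest level of 1.82, 2.58 and 3.29 in high-score carcinomas, against -4.83, 0.94 and 2.48 in low-score carcinomas, and -0.40, 0.14 and 0.96 in glands. Krt14 had 1.36, 3.12 and 3.85 in high-score carcinomas, against -2.88, 2.42 and 4.14 in low-score carcinomas. Krt17 had 0.59, 1.59 and 2.68 in high-score carcinomas, against -5.09, 0.79 and 3.11 in low-score carcinomas. For all 3 keratins carcinoma 7 was the lowest of the 13, and for Krt14 and Krt17 the highest of the 13 was carcinoma 2, which also belongs to the low-score set.

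Both contractile genes overlapped between the sets as well. Myh11 had 1.42, 2.76 and 4.36 in high-score carcinomas, against -2.17, 2.26 and 3.28 in low-score carcinomas. Cnn1 had -1.42, -0.31 and 0.96 in high-score carcinomas, against -5.22, -1.96 and -0.77 in low-score carcinomas. Carcinoma 2 had the second lowest level of each, -1.18 for Myh11 and -3.96 for Cnn1, so it entered the low-score set through its contractile genes, with Krt14 and Krt17 at the top of the range. The plot of the score and its genes shows each value.

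**Figure D1:**
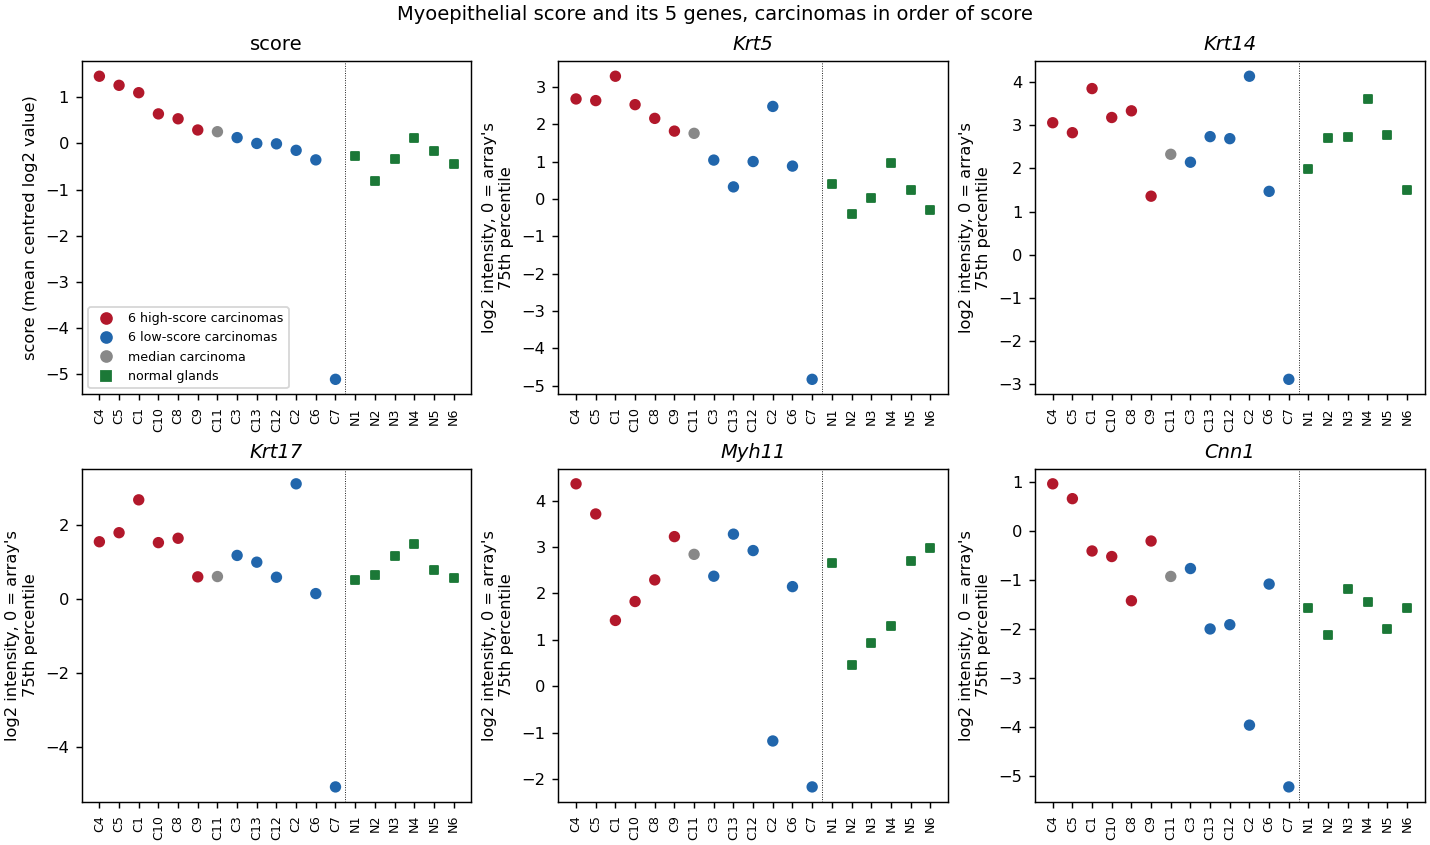
Myoepithelial score (mean centred log2 value) and the log2 intensity of its 5 genes relative to the array's 75th percentile, 1 point per array, with the 13 carcinomas (C) in order of score and the 6 normal glands (N) at the right. Carcinoma 7 lies at the bottom of every panel, and carcinoma 2 is high for Krt14 and Krt17 (4.14 and 3.11) and low for Myh11 and Cnn1 (-1.18 and -3.96).

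The score joined a pair of gene groups whose relation rested on carcinoma 7. Pearson's r between the keratin part (the mean of the 3 centred keratins) and the contractile part (the mean of centred Myh11 and Cnn1) was 0.57 over the 13 carcinomas and -0.31 over the 12 without carcinoma 7. Within the keratins the lowest pairwise r was 0.92 over 13 carcinomas and 0.61 over 12, and Myh11 and Cnn1 had an r of 0.87 over 13 and 0.75 over 12. These values describe points that share arrays, scaling and the choice of genes. Carcinomas 4 and 5 were high on both parts, with contractile parts of 2.27 and 1.79 and keratin parts of 0.91 and 0.90. Carcinoma 1 was high through keratins, with a keratin part of 1.75 and a contractile part of 0.11. Carcinoma 9 was the reverse, with a keratin part of -0.26 and a contractile part of 1.12.

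**Figure D2:**
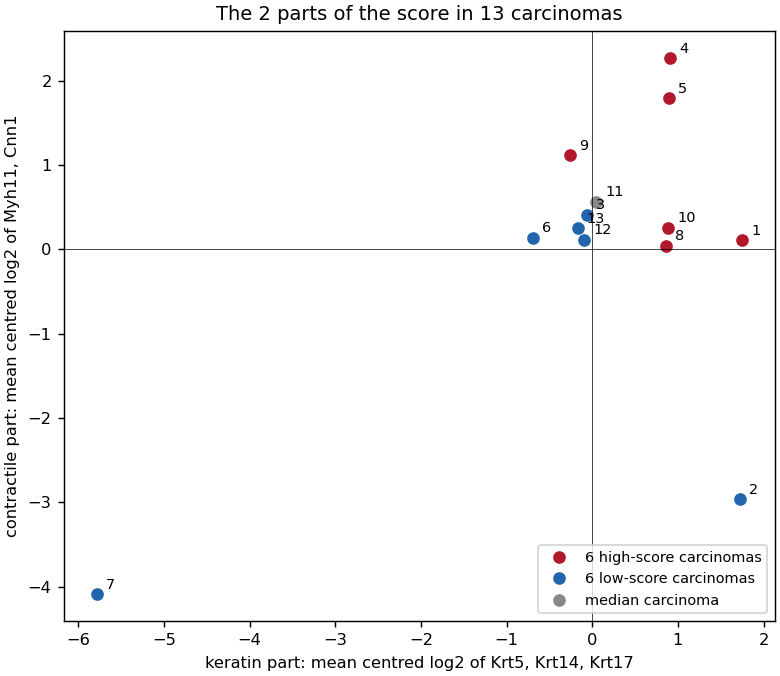
Keratin part (horizontal axis, mean centred log2 value of Krt5, Krt14 and Krt17) against contractile part (vertical axis, mean centred log2 value of Myh11 and Cnn1), 1 numbered point per carcinoma. Carcinoma 7 lies far down on both axes, and carcinoma 2 is high on the keratin axis and low on the contractile one. Pearson's r is -0.31 over the 12 carcinomas without carcinoma 7.

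The sets were balanced over the 3 slides, with 2 arrays of each set on each slide. The intensity at the 75th percentile ranged from 866 to 1269 in high-score carcinomas, against 485 to 1313 in low-score carcinomas, and the lowest value was carcinoma 7. Spots counted as well above background made up a median of 81.8% of an array in high-score carcinomas, against 79.6% in low-score carcinomas. The lowest share, 62.3%, was again in carcinoma 7. The sample codes in the labels hold a letter for 0 of 6 high-score and 2 of 6 low-score carcinomas, numbers 12 and 13, and a number for the others; what the code stands for is not stated. The number of arrays limits the precision, and fewer cells of a type and less RNA per cell cannot be told apart in bulk tissue.

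Across the other genes, none passed the test. With limma and Benjamini-Hochberg adjustment, 0 of 12598 genes reached an adjusted p under 0.05 in either direction (0% called), and the smallest adjusted p was 0.189. An unadjusted p under 0.05 was found for 1052 genes (8.35%), of which 661 (5.25%) were higher and 391 (3.1%) lower in high-score carcinomas. All 6 high-score carcinomas lay above all 6 low-score carcinomas for 23 genes (0.183%) and below them for 26 genes (0.206%). The median difference over all genes was 0.08, and 57.6% of genes had a difference above 0, so list medians below are read beside these values.

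Several contractile genes beyond the score had higher values in the high-score set without passing the test. Acta2, smooth muscle alpha-actin and the usual tissue marker of myoepithelium, had a lowest, median and highest level of 2.83, 3.16 and 4.04 in high-score carcinomas, against -1.55, 2.29 and 2.82 in low-score carcinomas, and 1.53, 2.13 and 2.50 in glands. The sets did not overlap, though the lowest high-score and the highest low-score carcinoma nearly touched. Its difference was 1.85 ± 0.63 (adjusted p = 0.516, limma), and 1.23 without carcinoma 7, which had -1.55. Mylk, the kinase that phosphorylates myosin light chain to start contraction, had 2.63, 2.89 and 4.86 in high-score carcinomas, against 0.12, 2.42 and 2.61 in low-score carcinomas. It too separated the sets by a narrow margin, with a difference of 1.23 ± 0.47 (adjusted p = 0.58, limma), and 0.83 without carcinoma 7.

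Myl9, the regulatory light chain of smooth muscle myosin, had 3.08, 3.83 and 4.99 in high-score carcinomas, against -0.40, 2.23 and 3.24 in low-score carcinomas, with carcinoma 2 the highest and carcinoma 7 the lowest of the low-score set. Its difference of 1.96 ± 0.57 (adjusted p = 0.447, limma) was the largest of the contractile genes. Tagln, the actin-bundling protein transgelin, had 2.60, 2.74 and 3.50 in high-score carcinomas, against -0.87, 2.35 and 2.62 in low-score carcinomas. The sets met at their edges, and the difference of 1.08 ± 0.50 (adjusted p = 0.597, limma) came to 0.54 without carcinoma 7. Flna, a filamin that cross-links actin, had 1.13, 1.53 and 2.05 in high-score carcinomas, against -0.23, 0.15 and 1.41 in low-score carcinomas (difference 1.27 ± 0.28, adjusted p = 0.301, limma).

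Other members of the contractile program did not follow. Oxtr, the oxytocin receptor, had -5.54, -4.68 and -3.70 in high-score carcinomas, against -5.53, -4.61 and -3.84 in low-score carcinomas, and was well above background in 6 high-score and 4 low-score arrays. Its difference was -0.03 ± 0.42 (adjusted p = 0.987, limma). Myocd, the coactivator of smooth muscle genes, had -6.37, -6.10 and -5.52 in high-score carcinomas, against -6.88, -5.86 and -4.66 in low-score carcinomas, and was well above background in 4 high-score and 3 low-score arrays. Desmin, Des, had a difference of -0.73 ± 0.96 and smoothelin, Smtn, one of -0.09 ± 0.36 (adjusted p = 0.827 and 0.955, limma), or -1.11 and -0.34 without carcinoma 7. Of the 18 contractile genes tested, from a list of 20, 0 passed, 13 had a difference above 0, and the median was 0.63, or 0.45 without carcinoma 7, beside 0.08 and 0.09 for all genes. Carcinoma 7 was the lowest of the 13 carcinomas for 11 of the 18, against 10.8% of all genes.

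The upstream sequences of a contractile gene that separated the sets and of one that helped set the score are shown because serum response factor drives such genes through CArG boxes, short A- and T-rich elements between CC and GG. RefSeq windows on the rat assembly GRCr8 were found for 5 of 9 genes looked for. Capitals mark every match to the frame CCNNNNNNGG, which reads the same on both strands. The Acta2 window is the 250 bases before the gene start, chr1:241172504-241172753 on the minus strand, and the Cnn1 window likewise, chr8:28908187-28908436 on the plus strand.
Acta2: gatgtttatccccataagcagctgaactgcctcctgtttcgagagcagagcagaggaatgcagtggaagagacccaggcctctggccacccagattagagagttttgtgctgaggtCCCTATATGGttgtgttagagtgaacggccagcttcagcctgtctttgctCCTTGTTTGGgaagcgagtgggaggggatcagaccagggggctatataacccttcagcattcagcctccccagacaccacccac
Cnn1: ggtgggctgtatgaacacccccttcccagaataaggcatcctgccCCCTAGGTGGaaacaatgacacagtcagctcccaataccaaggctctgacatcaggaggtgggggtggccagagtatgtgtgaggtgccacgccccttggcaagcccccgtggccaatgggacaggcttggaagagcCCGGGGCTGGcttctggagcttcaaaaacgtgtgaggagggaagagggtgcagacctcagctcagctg
Acta2 held CCCTATATGG and CCTTGTTTGG, beginning 134 and 84 bases before the start, and each departs from the strict CArG box at a single inner base. Cnn1 held CCCTAGGTGG and CCGGGGCTGG at 205 and 68 bases, with more G and C inside the frame. The loose frame was present in 65.1% of all 33465 windows of this length and the strict CArG box in 1.5%, so a match to the frame is a description only.

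Genes of the basal layer gave a mixed picture. Mme, the membrane peptidase CD10 that marks mammary myoepithelium, had -2.02, -1.42 and 1.14 in high-score carcinomas, against -4.08, -3.77 and -1.97 in low-score carcinomas, and -2.77, -1.58 and -1.40 in glands. The only low-score carcinoma within the high-score range was carcinoma 2, and the difference was 2.39 ± 0.53 (adjusted p = 0.304, limma), and 2.33 without carcinoma 7. Id4, an inhibitor of helix-loop-helix factors found in basal mammary cells, had -2.19, -0.02 and 0.44 in high-score carcinomas, against -3.70, -2.18 and -1.62 in low-score carcinomas (difference 2.05 ± 0.48, adjusted p = 0.344, limma). The glands had -4.99 to -2.93 for Id4, below all 6 high-score carcinomas.

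Tp63, the p53 relative that specifies basal epithelium, had 1.80, 2.09 and 2.97 in high-score carcinomas, against 1.81, 2.38 and 4.03 in low-score carcinomas. The sets overlapped throughout (difference -0.39 ± 0.37, adjusted p = 0.751, limma). The array carries another Tp63 probe, and the 2 probes differed. On the other probe the difference was 1.52, or 0.24 without carcinoma 7, whose level there was -6.66 while the probe used put it at 2.68. Which transcripts each probe reads was not tested, so no direction is given for Tp63. Sox10, a factor of basal and luminal progenitor cells, had a difference of -0.05 ± 0.52 (adjusted p = 0.981, limma), and carcinoma 7 had 3.71 for it, the highest of the low-score set.

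Cell adhesion and growth factor receptors of the basal layer turned on single tumours. Cdh3, P-cadherin, had -1.50, -0.29 and 0.71 in high-score carcinomas, against -4.79, -0.93 and 2.41 in low-score carcinomas, where carcinoma 7 was the lowest and carcinoma 2 the highest. Its difference was 0.71 ± 1.01 (adjusted p = 0.839, limma), and -0.03 without carcinoma 7. Egfr, the receptor of epidermal growth factor, had -0.70, 0.09 and 1.25 in high-score carcinomas, against -2.31, -0.38 and 0.47 in low-score carcinomas (difference 0.71 ± 0.45, adjusted p = 0.647, limma), and its difference was 0.37 without carcinoma 7. Krt15, a further basal keratin, showed the same pair at the ends of the low-score set, with 0.01 in carcinoma 7 and 5.65 in carcinoma 2. Of the 15 basal genes tested, from a list of 18, 0 passed and 13 had a difference above 0, with a median of 0.81, or 0.37 without carcinoma 7. Carcinoma 7 was the lowest of the 13 for 8 of them, and carcinoma 2 the highest for 7, against 11.9% of all genes.

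Basal cells are anchored to the basement membrane by hemidesmosomes, which join integrin alpha-6 beta-4 to laminin-332. Itgb4, the beta-4 integrin, had 3.59, 4.44 and 5.29 in high-score carcinomas, against 2.81, 3.47 and 4.84 in low-score carcinomas, overlapping for several tumours (difference 0.74 ± 0.36, adjusted p = 0.597, limma). Lamb3, the beta-3 chain of laminin-332, had 1.04, 1.53 and 2.08 in high-score carcinomas, against -0.05, 0.62 and 3.49 in low-score carcinomas, where 3.49 was carcinoma 2 alone (difference 0.50 ± 0.49, adjusted p = 0.756, limma). The 7 genes tested, from a list of 12, all had a difference above 0, with a median of 0.50, and 0 passed. Without carcinoma 7, 6 of the 7 were above 0 and the median was 0.45.

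Among basement membrane genes, Lama1, the alpha-1 laminin chain, had -4.33, -2.83 and -1.23 in high-score carcinomas, against -6.39, -5.28 and -4.07 in low-score carcinomas. A single high-score carcinoma lay inside the low-score range, and the difference was 2.55 ± 0.53 (adjusted p = 0.298, limma). Col4a1, a collagen IV chain, had 4.07, 4.70 and 5.36 in high-score carcinomas, against 2.01, 3.18 and 4.93 in low-score carcinomas (difference 1.40 ± 0.41, adjusted p = 0.447, limma). The 6 genes tested, from a list of 10, all had a difference above 0, with a median of 0.57. Without carcinoma 7, 5 of the 6 were above 0 and the median was 0.46.

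The genes with the smallest unadjusted p in each direction lay mostly outside these lists. Fut4, a fucosyltransferase that builds Lewis X sugars, had -0.31, -0.18 and 0.57 in high-score carcinomas, against -2.04, -1.45 and -0.68 in low-score carcinomas (difference 1.43 ± 0.25, adjusted p = 0.189, limma). Bche, the enzyme butyrylcholinesterase, had -1.84, 0.14 and 2.20 in high-score carcinomas, against -6.13, -3.51 and -2.16 in low-score carcinomas (difference 3.98 ± 0.76, adjusted p = 0.211, limma). Neither gene overlapped between the sets. Tcea3, a transcription elongation factor, had a difference of 1.96 ± 0.36, and Lhfpl6, a membrane protein of the tetraspan superfamily, one of 1.58 ± 0.32 (adjusted p = 0.189 and 0.298, limma), also without overlap. Cib2, a calcium and integrin binding protein, had 1.21 ± 0.25 (adjusted p = 0.298, limma). Smim38, a small membrane protein, had the largest of these differences, 6.38 ± 1.21 (adjusted p = 0.211, limma), but its levels ran from -3.19 to 4.47 in high-score carcinomas, against -7.36 to -2.89 in low-score carcinomas, with overlap, and only 3 of the 6 low-score arrays were well above background.

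On the lower side, C3, the central component of complement, had -0.30, 1.11 and 3.06 in high-score carcinomas, against 3.31, 4.74 and 6.40 in low-score carcinomas, and 3.23, 4.89 and 6.18 in glands. The high-score carcinomas lay below every low-score carcinoma and every gland (difference -3.65 ± 0.66, adjusted p = 0.189, limma, and -3.40 without carcinoma 7). Gadd45g, a growth arrest gene induced by stress, had -2.10, -1.04 and -0.36 in high-score carcinomas, against 0.09, 0.68 and 1.11 in low-score carcinomas (difference -1.70 ± 0.28, adjusted p = 0.189, limma). Flrt3, a leucine-rich transmembrane adhesion protein, had -4.89, -4.56 and -4.02 in high-score carcinomas, against -3.64, -2.95 and -2.30 in low-score carcinomas (difference -1.59 ± 0.28, adjusted p = 0.189, limma). None of these overlapped between the sets. Rbm20, a splicing regulator of muscle genes, had a difference of -2.30 ± 0.40 (adjusted p = 0.189, limma) on the probe used and -0.27 on a dimmer probe. Atp6v0a1, a subunit of the proton pump of acidic vesicles, had -0.91 ± 0.16 and Sec61g, a subunit of the secretory translocon, -0.76 ± 0.16 (adjusted p = 0.189 and 0.298, limma).

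**Figure D3:**
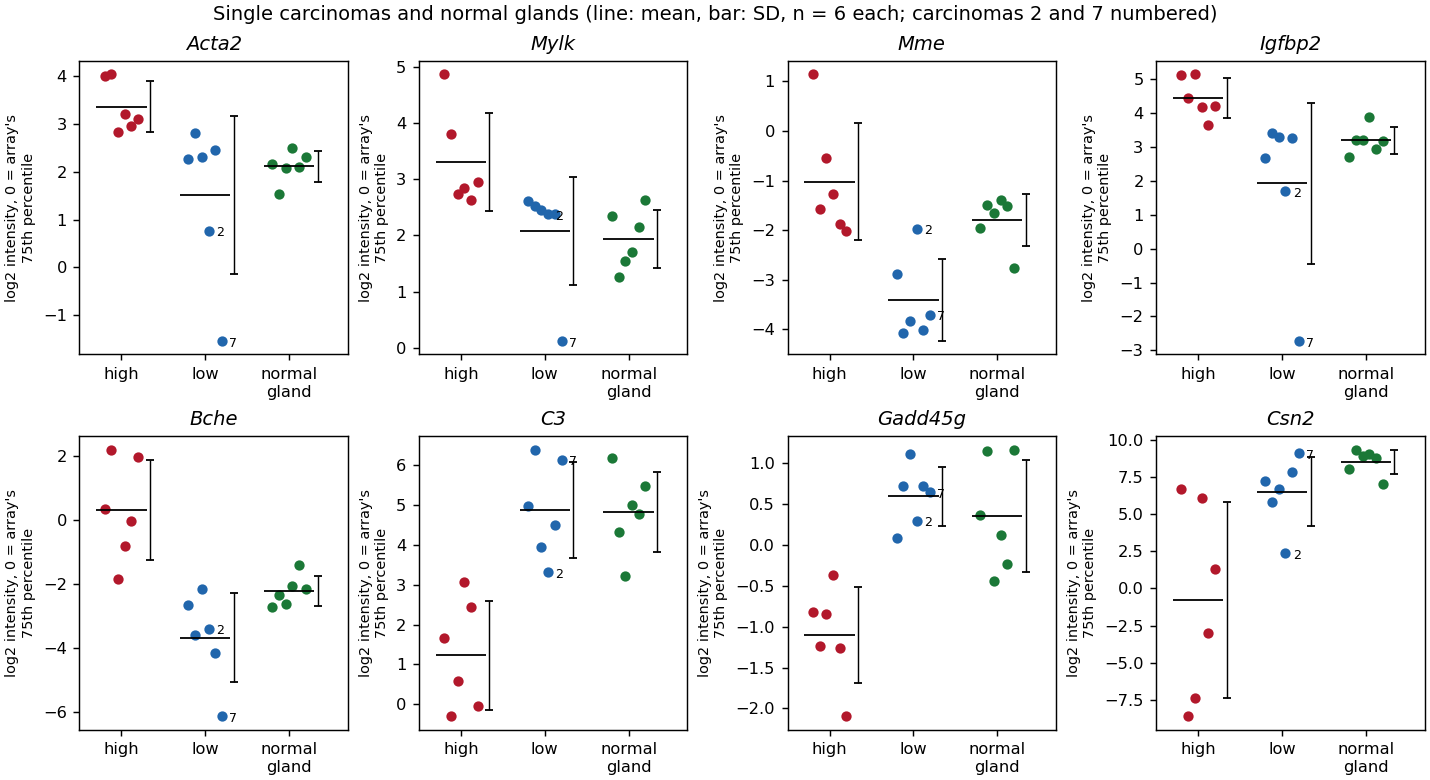
Log2 intensity relative to the array's 75th percentile for 8 genes, 1 point per array, in high-score carcinomas (red), low-score carcinomas (blue) and normal glands (green), with the mean as a line and the SD as a bar (n = 6 each). Acta2, Mylk, Igfbp2, Bche, C3 and Gadd45g do not overlap between the carcinoma sets, Mme and Csn2 do, and carcinoma 7 (numbered, with carcinoma 2) lies far below the rest of its set for Acta2, Mylk and Igfbp2.

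**Figure D4:**
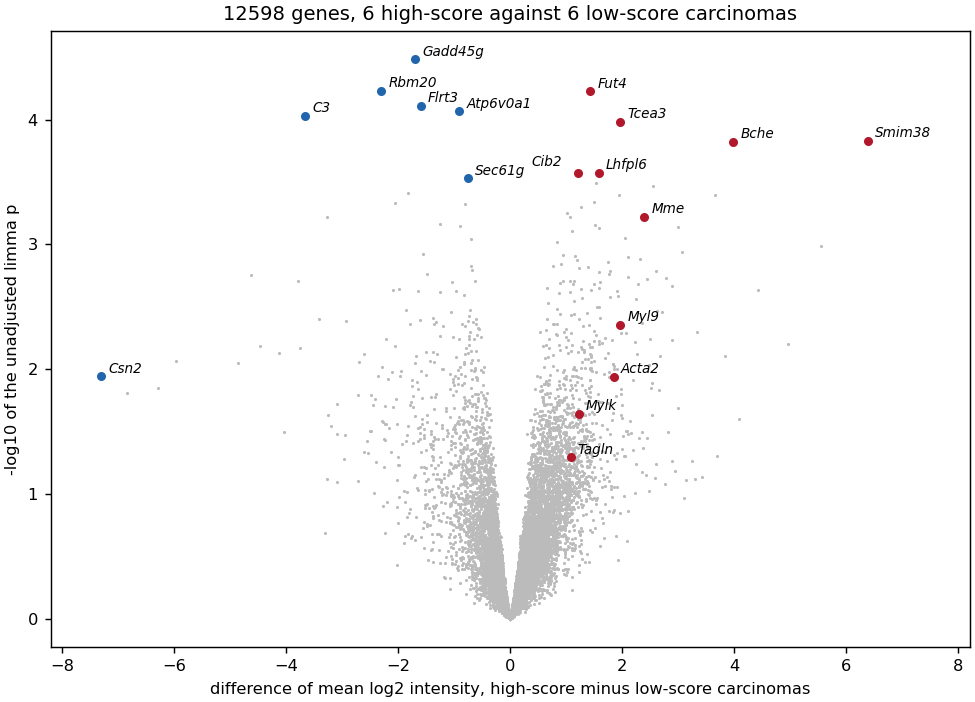
Difference of mean log2 intensity, high-score minus low-score carcinomas (horizontal axis), against -log10 of the unadjusted limma p (vertical axis), 1 point per gene for 12598 genes, with named genes in red (higher) or blue (lower). No gene reached an adjusted p under 0.05, and the smallest adjusted p was 0.189, for genes such as Gadd45g and Fut4.

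Luminal genes, which mark the inner, secretory layer of the duct, mostly had higher values in the high-score set as well. Krt18, a keratin of simple epithelium, had 6.20, 6.97 and 7.69 in high-score carcinomas, against 4.65, 6.15 and 7.04 in low-score carcinomas, with overlap. Its partner Krt8 had 2.14, 2.25 and 3.97 in high-score carcinomas, against 1.11, 1.99 and 2.87 in low-score carcinomas. Their differences were 0.93 ± 0.36 and 0.79 ± 0.39 (adjusted p = 0.58 and 0.597, limma). Gata3, a luminal transcription factor, had 1.29, 1.74 and 2.38 in high-score carcinomas, against -1.65, 0.38 and 2.07 in low-score carcinomas (difference 1.42 ± 0.49, adjusted p = 0.517, limma). Spdef, a luminal ETS factor, had 1.27, 3.04 and 3.96 in high-score carcinomas, against -5.17, 1.59 and 3.63 in low-score carcinomas, where carcinomas 7 and 2 had -5.17 and -1.52. Its difference of 2.43 ± 1.23 (adjusted p = 0.606, limma) came to 1.29 without carcinoma 7. Of the 22 luminal genes tested, from a list of 23, 0 passed, 18 had a difference above 0, and the median was 0.45, or 0.42 without carcinoma 7. Carcinoma 2 was the lowest of the 13 carcinomas for 8 of the 22, against 10.1% of all genes. The mean of the centred list ranged from -0.16 to 0.50 in high-score carcinomas. It was -1.21 in carcinoma 2 and -0.78 in carcinoma 7, and from -0.02 to 0.21 in the other low-score carcinomas.

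Receptors that define clinical classes of breast cancer overlapped between the sets. Esr1, the oestrogen receptor, was dim, with -8.02, -5.81 and -5.23 in high-score carcinomas, against -8.39, -5.65 and -4.73 in low-score carcinomas, and was well above background in 3 high-score and 4 low-score arrays. Pgr, the progesterone receptor, had -3.66, -2.26 and -1.20 in high-score carcinomas, against -5.99, -2.89 and 0.15 in low-score carcinomas. Its difference was 0.37 ± 0.89 (adjusted p = 0.911, limma), and -0.27 without carcinoma 7. Erbb2, the HER2 receptor, had 1.71, 2.26 and 2.45 in high-score carcinomas, against 1.12, 2.41 and 2.66 in low-score carcinomas, and 1.12 was carcinoma 2 (difference -0.08 ± 0.26, adjusted p = 0.942, limma). The differences on its other probes were 0.57 and 0.27, so no direction is given for Erbb2.

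Of all lists, milk genes had the median difference furthest below 0. Csn2, beta-casein, had -8.59, -0.82 and 6.71 in high-score carcinomas, against 2.36, 6.96 and 9.10 in low-score carcinomas, and 7.05, 8.85 and 9.28 in glands. The sets overlapped, since 2 high-score carcinomas lay among the low-score ones, and the difference was -7.30 ± 2.49 (adjusted p = 0.516, limma), and -6.78 without carcinoma 7. Csn2 was well above background in 4 high-score and 6 low-score arrays, so background sets part of its lowest values and of the size of that difference. Wap, whey acidic protein, had -6.61, -0.15 and 5.26 in high-score carcinomas, against 1.88, 6.02 and 8.28 in low-score carcinomas (difference -5.96 ± 1.93, adjusted p = 0.501, limma). Glycam1, a milk mucin, had -7.08, -1.88 and 6.45 in high-score carcinomas, against -2.68, 5.41 and 9.16 in low-score carcinomas (difference -6.28 ± 2.22, adjusted p = 0.537, limma).

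The 15 milk genes tested, from a list of 17, all had a difference below 0, and 0 passed. The median was -2.27, or -1.62 without carcinoma 7, when 1 of 15, Mfge8, turned above 0. The mean of the centred list overlapped between the sets, from -6.49 to 1.42 in high-score carcinomas, against -0.93 to 3.94 in low-score carcinomas. Carcinoma 7 was the highest of the 13 carcinomas for 13 of the 15, against 12.9% of all genes, so the tumour lowest for the score stood highest for milk genes. Milk gene transcription follows prolactin through Stat5, which binds the palindrome TTCNNNGAA, and the 250 bases upstream of Csn2 (RefSeq, GRCr8, chr14:20601574-20601823, plus strand) are shown with that motif in capitals.
Csn2: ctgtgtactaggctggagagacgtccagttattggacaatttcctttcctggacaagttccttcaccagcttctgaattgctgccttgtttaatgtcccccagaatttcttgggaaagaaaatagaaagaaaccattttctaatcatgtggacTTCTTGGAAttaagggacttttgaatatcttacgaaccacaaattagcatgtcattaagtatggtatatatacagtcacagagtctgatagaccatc
The match TTCTTGGAA begins 97 bases before the gene start, and 7.67% of all 33465 windows hold at least 1 match on either strand, which is a description of the sequence and shows no binding.

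Other cell types were examined because the contractile genes are shared with vessel walls and muscle. Rgs5, a marker of pericytes, had -2.10, -1.66 and -1.27 in high-score carcinomas, against -3.05, -1.63 and -1.02 in low-score carcinomas (difference 0.15 ± 0.36, adjusted p = 0.911, limma). Of the 11 vascular smooth muscle and pericyte genes tested, 6 had a difference above 0, the median was 0.08, the same as over all genes, or 0.19 without carcinoma 7, and the mean of the centred list ranged from -0.76 to 0.53 in high-score carcinomas, against -0.85 to 0.85 in low-score carcinomas. Skeletal muscle genes had the highest median of any list, 1.19, or 0.94 without carcinoma 7, with 10 of 12 above 0. Acta1, skeletal alpha-actin, had -3.28, 0.35 and 1.01 in high-score carcinomas, against -4.84, -2.56 and -0.59 in low-score carcinomas (difference 2.15 ± 0.90, adjusted p = 0.58, limma). The centred skeletal muscle list ranged from -0.86 to 2.92 in high-score carcinomas, against -1.88 to 2.93 in low-score carcinomas, so the summed level overlapped almost wholly, and its part in the contractile values was not tested.

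Adipocyte genes gave the opposite order. The centred list of 9 genes ranged from -0.92 to -0.14 in high-score carcinomas, against 0.10 to 0.88 in low-score carcinomas, without overlap, and from 5.49 to 6.63 in glands. Cd36, a fatty acid transporter, had -2.08, -1.41 and -0.32 in high-score carcinomas, against -1.22, 1.79 and 4.46 in low-score carcinomas (difference -2.60 ± 0.83, adjusted p = 0.481, limma). Adipoq, adiponectin and the most restricted of the markers, had -7.68, -6.00 and -3.97 in high-score carcinomas, against -7.68, -4.78 and -2.73 in low-score carcinomas, and 3.99 to 5.17 in glands, and was well above background in 4 high-score and 4 low-score arrays. Of the 9 genes 8 had a difference below 0, the median was -0.68, and 0 passed. The part of fat tissue in the milk gene and C3 values was not tested.

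Cell cycle genes were above 0 for 21 of 22, with a median of 0.56, or 0.75 without carcinoma 7. Mcm6, part of the replication helicase, had -2.48, -1.34 and -0.30 in high-score carcinomas, against -5.39, -2.02 and -0.96 in low-score carcinomas (difference 1.33 ± 0.69, adjusted p = 0.606, limma), and Mcm3 had a difference of 0.96 ± 0.38 (adjusted p = 0.58, limma). The centred list overlapped between the sets, from -1.28 to 1.41 in high-score carcinomas, against -1.80 to 0.61 in low-score carcinomas. The letter-coded carcinomas 13 and 12 had -1.80 and -1.22, and the other low-score carcinomas -0.51 to 0.61, inside the high-score range. Carcinomas 13 and 12 were also the lowest for Mcm6, at -5.39 and -4.16, with the other low-score carcinomas from -2.06 to -0.96. Among hypoxia genes, 6 of 9 were below 0, and carcinoma 2 was the highest of the 13 for 6 of 9. Ndrg1, a gene induced by low oxygen, had a difference of -1.96 ± 0.67 (adjusted p = 0.516, limma). Lists for endothelium, fibroblasts, macrophages and p53 targets had medians between -0.21 and 0.26, or between -0.09 and 0.40 without carcinoma 7. Their members of largest absolute difference were the junction protein Cldn5 at 0.69 ± 0.82, the matrix protein Thbs2 at 1.06 ± 0.87, the secreted phosphoprotein Spp1 at -2.02 ± 1.05 and Phlda3, a p53 target that restrains Akt, at 1.44 ± 0.50, and none of the 4 passed. T and NK cell genes had a median of 0.61 with 11 of 13 above 0, led by Cd2, a lymphocyte adhesion receptor (difference 1.20 ± 0.56, adjusted p = 0.596, limma), which was well above background in 4 high-score and 3 low-score arrays, and 0 passed.

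**Figure D5:**
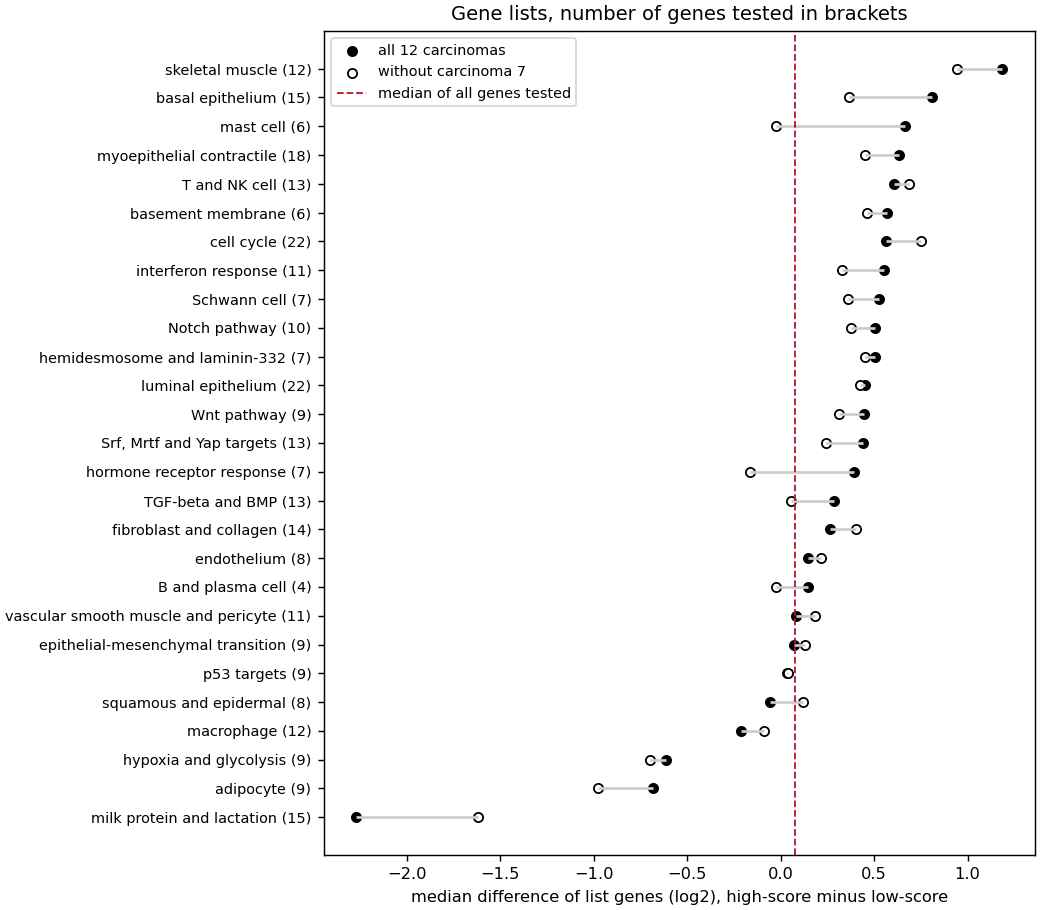
Median difference (log2, high-score minus low-score carcinomas) of the genes in each of 27 lists, with the number tested in brackets, from all 12 carcinomas (filled) and without carcinoma 7 (open). The dashed line is the median of all genes, 0.08; milk genes lie lowest at -2.27, and leaving out carcinoma 7 moves basal genes to 0.37 and mast cell genes to -0.03.

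Of the remaining lists, each is given by its median and the member with the largest absolute difference, none of which passed. Srf, Mrtf and Yap targets had a median of 0.44, or 0.24 without carcinoma 7, with Tgfb1i1, a focal adhesion coactivator, at 1.54 ± 0.32 (adjusted p = 0.298, limma). The Notch list had 0.50, led by the ligand Jag1 at 0.98 ± 0.69, and 0.38 without carcinoma 7, with Jag1 at 0.41. The Wnt list had 0.45, led by the ligand Wnt6 at 1.28 ± 0.69, and 0.31 without it, with Wnt6 at 0.80. TGF-beta and BMP genes had a median of 0.29, or 0.05 without carcinoma 7, and their largest member, the ligand Bmp4, was on the other side at -2.22 ± 0.89. For epithelial-mesenchymal transition the median was 0.07, or 0.13 without it, with the mesodermal factor Twist1 at 1.68 ± 0.51. Hormone response genes had 0.39, with the growth factor Areg at 1.90 ± 1.46, and -0.16 without carcinoma 7, with Areg at 1.15. Interferon genes had 0.55, with the protease Usp18 at 1.35 ± 0.80, and 0.33 without it, with Usp18 at 0.83. Squamous genes had -0.06, with the cross-linking enzyme Tgm1 at -1.75 ± 0.60, and 0.12 without carcinoma 7. Mast cell genes had 0.67, with the protease Mcpt1 at 1.34 ± 1.39, and -0.03 without it, with Mcpt1 at 0.67. Schwann cell genes had 0.53, or 0.36 without carcinoma 7, with the myelin protein Pmp22 at 0.78 ± 0.36. B and plasma cell genes had 0.14, with Cd79b of the antigen receptor at 0.42 ± 0.48, and -0.02 without it, with Cd79b at 0.26.

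A slope on the score over all 13 carcinomas, in place of the split, gave another count that hung on a single tumour. With limma, 153 of 12598 genes (1.21%) passed, 113 (0.897%) rising with the score and 40 (0.318%) falling. Of the 18 contractile genes, 5 rose with it, Tagln, Tpm2, Acta2, Mylk and Myl9, and of the 15 basal genes 1, Perp. In other lists, 2 of 22 luminal genes rose with the score. So did 1 of 9 epithelial-mesenchymal transition genes, 1 of 10 Notch genes and 1 of 12 skeletal muscle genes. Tagln had the highest correlation of all genes with the score, r = 0.99 over 13 carcinomas and 0.90 over 12 without carcinoma 7. Next came Itgb6, a beta integrin of epithelium, Tenm2, a teneurin adhesion protein, Igfbp2, which binds insulin-like growth factors, and Tpm2, a muscle tropomyosin, with r of 0.97, 0.96, 0.95 and 0.95 over 13, and 0.68, 0.80, 0.77 and 0.72 over 12. The lowest r was -0.95 for Ankrd49, then -0.94 for Tatdn2 and Itsn1, and -0.93 for Mtmr2 and Thbd, and carcinoma 7 had the highest level of its set for each of these 5. Over 12 carcinomas their r was -0.64, -0.69, -0.71, -0.24 and -0.64, in that order. Other probes of Ankrd49 and Thbd had differences of -0.04 and -0.26, against -0.43 and -2.03 on the probes used. Other probes gave -0.54 for Mtmr2, against -0.66, and -0.59 and -0.25 for Itsn1, against -0.42. These correlations describe arrays that share their scaling with the score. Without carcinoma 7, 0 genes passed the slope on the score (0% called), with 487 of 12598 at an unadjusted p under 0.05, a share itself below 0.05.

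The parts of the score were also fitted one at a time. A slope on the keratin part over 13 carcinomas gave 159 genes (1.26%), 112 rising (0.889%) and 47 falling (0.373%). A slope on the contractile part gave 35 (0.278%), 32 rising (0.254%) and 3 falling (0.0238%). Without carcinoma 7 each gave 1 gene (0.00794%), as alternatives chosen after the data were seen. For the contractile part this was Acta2, which rose by 0.63 ± 0.08 per log2 unit of Myh11 and Cnn1 (adjusted p = 0.0312, limma), and over 13 carcinomas by 0.81 ± 0.07 (adjusted p = 0.000236, limma). Acta2 was the only contractile gene outside the score that passed on the contractile part with carcinoma 7 left out. In that fit carcinoma 2 had the lowest contractile part, -2.96, with the next lowest at 0.04 in carcinoma 8, and the lowest Acta2 level, 0.77. Whether the slope holds without carcinoma 2 was not tested.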

How the data were processed

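Total RNA from each sample was hybridised to 1 Agilent single-colour array. The authors deposited scanner files from Agilent Feature Extraction 10.7.3.1, per the submitters' processing notes, with each spot's background-subtracted intensity and its flags, per the file headers. They also deposited a log2 value table. It matched the scanner log2 intensity up to a constant per array, with a Pearson r of at least 1.00 after the same spots were left out; its scale and centring were read from the values and are not stated in the labels.

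Control spots were removed, leaving 58717 spots of 30367 probes, and spots marked as uneven or as deviating from their replicates were treated as missing. Each array's 75th percentile was subtracted on the log2 scale before the mean over a probe's spots was taken. RefSeq accessions in the array annotation were matched without version to a current rat gene table, which named 15168 symbols on 18005 probes; the other 12362 probes were not used. A probe was kept when at least 0.5 of its spots were well above background on at least 6 carcinoma arrays, and the probe with the highest mean over the carcinomas stood for its gene. This gave 12603 genes, or 12598 without the 5 score genes, and 58 of these had a missing value in at least 1 carcinoma and were fitted on the others.

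The sets were compared with limma 3.58.1 in R 4.3.3 (moderated variances with a trend, 2-sided, Benjamini-Hochberg over all 12598 genes, threshold 0.05), and the script was tested on simulated data. The split came from the same arrays as the genes tested, so each test is of an association with the score. The 27 lists hold 362 entries, of which 294 symbols were tested. The score, the lists and the rule for named genes were chosen with earlier results of these data known. The rule took, where nothing passed, the 6 smallest unadjusted p in each direction, the largest absolute difference of each list, a set of myoepithelial, receptor and luminal genes, and the 5 highest and 5 lowest correlations with the score. Mki67, one of that set, was not analysed here, since no named probe of it was kept. Flna, Id4, Krt15, Des, Smtn, Sox10, Col4a1, Gata3, Wap, Glycam1, Adipoq, Mcm3, Perp and Mfge8 lie outside the rule and were chosen after their values were seen. Promoter windows were the 250 bases before the gene start in RefSeq's GRCr8 annotation.

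Alternatives were normexp background correction (offset 50), quantile normalization, the authors' table, other filters on dim probes, the mean of all probes, marked spots kept, eBayes without a trend, a block for slide, for scan day or for code series, single slides, number-coded carcinomas only, array brightness as a covariate, slopes on the score or its parts, and leaving out each carcinoma. The gene called on the keratin part without carcinoma 7 is not reported here.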

Additional observations from a re-analysis of the deposited data

Results flagged for a closer look

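In the low-score set, 1 array stood apart from the other 5 by Dixon's criterion for several values, and most often it was carcinoma 7. It had a score of -5.11, against -0.36 for the next lowest carcinoma. Among keratins its levels were -4.83 for Krt5 and -5.09 for Krt17. Among contractile genes it had -0.87 for Tagln, 0.12 for Mylk and -0.98 for Tpm2, each below the rest of the set. It was also far below the set for Itgb6 at -4.69, Tenm2 at -5.99 and Igfbp2 at -2.73. It was far above the set for Thbd at 3.35, Mtmr2 at 3.52, Itsn1 at 0.67, Tatdn2 at 2.91 and Ankrd49 at -1.21. The genes chosen for their correlation with the score over 13 carcinomas are ones in which carcinoma 7 had to be extreme.

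Carcinoma 2 stood apart in the low-score set for Lamb3 at 3.49, above the rest, and for Erbb2 at 1.12, below the rest. Carcinoma 12 was above the low-score set for Atp6v0a1 at 3.21. Among glands, gland 3 was apart for Lhfpl6 at 1.16, Cldn5 at 0.30 and the skeletal muscle actin Acta1 at 4.73, and gland 6 for Ankrd49 at -1.95. In all, 21 of 206 groups of 6 arrays were marked, 14 of them for carcinoma 7. Chance alone marks about 1 in 20 groups. The count cannot be set against that rate, because the score, its genes and genes chosen by correlation with it were among those examined.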

How the results depend on the processing

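No gene passed under normexp, quantile normalization, the authors' table, both other filters on dim probes, the mean of all probes, marked spots kept, eBayes without a trend, slide or scan day as a block, or within slides 1 and 3. Within slide 2, 1 gene passed (1 lower), the plasma protein gene Orm1. With the code series as a block, and in number-coded carcinomas only, 4 passed (4 higher): Cited1, Upk3a, Capn8 and Msx2. Both settings make the same comparison, 6 high-score against 4 low-score carcinomas, since no high-score carcinoma was letter-coded, and their differences were the same. With array brightness as a covariate, 2 passed, Lhfpl6 higher and Hephl1 lower. These genes were named after their values were seen. The slopes gave 153 genes (113 rising, 40 falling) on the score, 159 (112 and 47) on the keratin part and 35 (32 and 3) on the contractile part, and, in alternatives chosen after seeing the data, 0, 1 and 1 without carcinoma 7. Leaving out each carcinoma gave 0 to 1 genes passing (0 to 1 higher, 0 to 0 lower), the 1 being Shisa8 without carcinoma 6, and 761 to 1684 at an unadjusted p under 0.05. No paired analysis was possible because the labels do not say whether any carcinomas came from the same rat. Normexp used median spot signals in place of the planned mean signals.

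Some differences changed sign, and the cause was not tested. Within slide 2, Oxtr 0.63, Rgs5 -0.80, Cldn5 -0.38 and Thbs2 -0.57. On the slope with the score, Oxtr 0.073, Esr1 0.075 and Rgs5 -0.084. On the contractile slope, Oxtr 0.17, Itgb4 -0.078, Lamb3 -0.19, Esr1 0.24, Erbb2 0.090, Rgs5 -0.13, Myocd 0.017, Cldn5 -0.20, Thbs2 -0.21, Mcm6 -0.034 and Cd2 -0.026. With the mean of all probes, Tp63 0.56 and Erbb2 0.25. Within slide 1, Tp63 0.12, Lamb3 -0.27, Esr1 1.58, Erbb2 0.22, Krt8 -0.39, Rgs5 -0.26, Myocd 0.88, Heyl 0.086, Mcm6 -0.26, Cd2 -0.47, Cd79b -0.59 and Usp18 -1.42. With the code series as a block, and equally in number-coded carcinomas only, Tp63 0.12, Esr1 0.17, Erbb2 0.046, Rgs5 -0.34, Myocd 0.21 and Cldn5 -0.40. Within slide 3, Cdh3 -0.093, Spdef -0.26, Jag1 -0.010, Ndrg1 0.58, Itgb6 -0.088 and Itsn1 0.047. Under normexp, Pgr -0.073. On the keratin slope, Rgs5 -0.03 and Heyl 0.032. On leaving out single carcinomas the differences ranged from -0.030 to 1.41 for Cdh3, -0.020 to 1.16 for Cldn5, -0.30 to 0.015 for Erbb2, -0.69 to 0.15 for Esr1, -0.30 to 0.15 for Myocd, -0.23 to 0.14 for Oxtr, -0.27 to 0.96 for Pgr and -0.093 to 0.31 for Rgs5. Dim genes such as Esr1, Oxtr and Myocd were above background on only some arrays, which limits their values.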
